A study of Mus musculus with 8 samples.

Results

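The comparison of MHCIIhi with MHCIIlo cells inside the Tspan8neg gate of mouse medullary thymic epithelial cells (mTECs) rests on 4 of the 8 RNA-seq libraries of the study, 2 of Tspan8negMHCIIhi and 2 of Tspan8negMHCIIlo. The libraries were taken by their descriptions, which give the Tspan8 state, the MHCII level and a replicate number. All came from wild-type thymus, of BL6N6 mice a few weeks old per the study's methods, and carry no transgene, deletion or treatment. Cells were sorted as CD45neg EpCAMpos CDR1neg, then by surface Tspan8 and by high or low MHC class II. Whether animals were pooled and whether equal replicate numbers share mice is not stated, so the p-values below measure the spread between these samples only. The other 4 libraries are the same contrast inside the Tspan8pos gate (Tspan8posMHCIIhi and Tspan8posMHCIIlo) and serve as the comparison.

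mTECs mature from immature cells with little MHC class II to cells with much MHC class II and CD80, many of which express Aire, the autoimmune regulator that opens transcription of genes otherwise restricted to single tissues. Developing T cells are tested against these self antigens, which are presented on MHC class II by the mTEC itself or passed on to dendritic cells. The MHCIIlo gate is mixed by nature. It can hold immature and Ccl21a-producing cells, Aire-independent cells, and cells past the Aire stage that resemble other tissues, such as Tuft cells or neuroendocrine cells (mimetic cells). An RNA level from such a gate is a mean over these cell types, and fewer cells of a type cannot be told apart from less RNA per cell.

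Total counts were 4552711 and 7306157 in the MHCIIhi libraries and 3456419 and 3928879 in the MHCIIlo libraries (replicates 1 and 2, in this order throughout). Values are given as CPM, the counts scaled to library size after TMM normalization. A floor of 3 counts was 0.624 and 0.385 CPM in MHCIIhi and 0.843 and 0.707 CPM in MHCIIlo. The MHCIIlo replicates stood further apart than any other pair, with a chi-square of 9.84 per gene against 3.29 for the MHCIIhi pair.

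The MHCIIlo libraries also differed from MHCIIhi in RNA known from cells other than epithelium. Summed dendritic and myeloid markers were higher in MHCIIhi, at 421 and 489 CPM against 71.6 and 147 CPM in MHCIIlo, and are described further below. Of 17 thymocyte markers tested, 12 were lower in MHCIIhi (6 without MHCIIhi replicate 1) and none higher, with a median log2 fold change of -2.92, and their summed level was 186 and 315 CPM in MHCIIhi against 749 and 2024 CPM in MHCIIlo. The recombinase gene Rag1 was at 7.9 and 22.7 CPM in MHCIIhi and 60.1 and 181 CPM in MHCIIlo (its call was lost without MHCIIhi replicate 1), and Cd3g of the T cell receptor complex at 4.16 and 7.82 and 68 and 171 CPM. MHCIIlo replicate 2 had the highest level of all these, 2.7 times that of replicate 1 in the summed list. Ptprc, the gene of the CD45 protein that the sort excluded, was at 11.9 and 22.8 CPM in MHCIIhi and 89.3 and 205 CPM in MHCIIlo. Immunoglobulin gene segments summed to 146 and 199 CPM in MHCIIhi and to 2084 and 3632 CPM in MHCIIlo. Of the 110 segments listed, 35 were tested, 28 were lower in MHCIIhi and none was higher. Of all genes tested, 9.67% were lower and 13.1% higher. A segment that passed the filter on low counts through MHCIIlo alone had to differ, so these counts are a description. Among 7 endothelial markers tested, 3 were lower in MHCIIhi (Pecam1, Cdh5 and Tek), against 1 without MHCIIhi replicate 2 and 5 without MHCIIlo replicate 2. Of 10 fibroblast markers, 3 were higher and 5 lower, but without either MHCIIhi library none was higher and 1 lower, and without MHCIIlo replicate 2 there were 2 higher and 3 lower. Of 5 erythroid markers 1 was higher and 1 lower, with none lower without either MHCIIhi library and 3 lower without MHCIIlo replicate 1.

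A list of dissociation stress genes and the mitochondrial share also differed between the gates. Whether cell handling or the mix of cell types gave these differences was not tested. Of 11 dissociation stress genes, 5 were lower in MHCIIhi and none higher. The immediate early gene Fos was at 855 and 916 CPM in MHCIIhi and 2673 and 2465 CPM in MHCIIlo, and Atf3 at 576 and 499.6 and 2016 and 1373 CPM. Mitochondrially encoded transcripts made up 0.575% and 0.738% of the counts in MHCIIhi and 1.68% and 1.6% in MHCIIlo. The part of lymphoid RNA, of dendritic and myeloid RNA, of stress and of RNA quality in the results below was not tested.

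**Figure D1:**
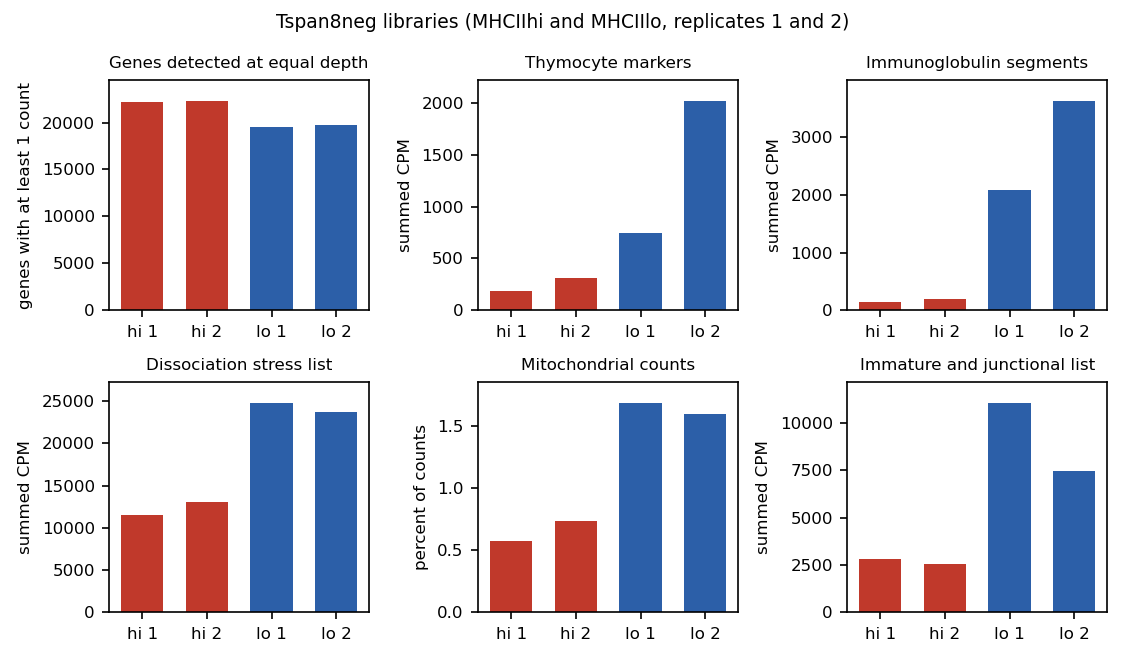
Bars show 6 measures in the 4 Tspan8neg libraries, MHCIIhi in red and MHCIIlo in blue: genes with at least 1 count after scaling to the same depth, summed CPM of thymocyte markers, of immunoglobulin segments, of dissociation stress genes and of the immature and junctional list, and the percent of counts from the mitochondrial genome. MHCIIlo replicate 2 has the tallest bars for thymocyte markers (2024 CPM) and immunoglobulin segments (3632 CPM), and both MHCIIhi bars are the taller pair for genes detected.

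Between the gates, 3866 of 17006 genes tested were called at an edgeR adjusted p under 0.01 and at least a 2-fold change. In MHCIIhi 2222 genes were higher (13.1% of genes tested) and 1644 were lower (9.67%), and the median log2 fold change of all genes was -0.04. All 3866 called genes had groups that did not overlap, which with 2 libraries a side also holds for 12256 of all genes tested. Large differences lay mostly on the MHCIIhi side, where 948 genes were at least 8 times higher, against 231 at least 8 times lower. In 585 of the genes called higher, both MHCIIlo libraries were at or under the floor, so that those differences amount to detection in MHCIIhi and near absence of counts in MHCIIlo. The reverse held for 51 genes called lower.

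The 2 directions also differed by expression level. Among 2417 genes with a mean over all 8 libraries between 1 and 3 CPM, 16.3% were higher in MHCIIhi and 2.15% lower. Among 4578 genes between 30 and 100 CPM, 9.65% were higher and 12% lower. At low levels a gene that passed the filter on low counts through 1 gate alone had to differ, and the MHCIIlo libraries were the shallower pair. The part of the filter and of depth in these shares was not tested. The breadth of the transcriptome differed in the same sense. When all 4 libraries were scaled down to the depth of the shallowest, 22160 and 22310 genes had a count in MHCIIhi and 19485 and 19792 in MHCIIlo, a mean difference of 2597 genes. Asking for 5 counts left 17163 and 17484 genes against 15416 and 15894. Both MHCIIhi libraries exceeded both MHCIIlo libraries under either rule, and 2 against 2 libraries cannot give an exact permutation p below 0.333.

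**Figure D2:**
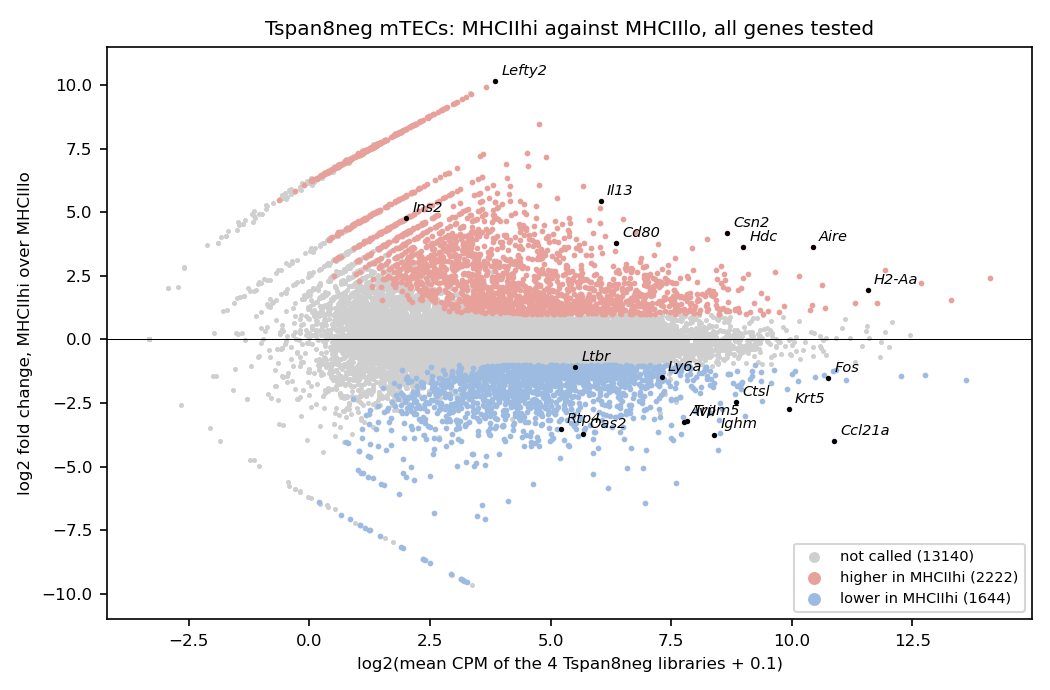
Each point is 1 of 17006 genes tested, with the mean level in the 4 Tspan8neg libraries on the horizontal axis (log2 CPM) and the log2 fold change of MHCIIhi over MHCIIlo on the vertical axis. The 2222 genes called higher (red) reach further at low levels than the 1644 called lower (blue), and diagonal lines of points are genes at 0 in 1 group.

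The gate itself was read first. H2-Ab1, a chain of the sorted MHC class II molecule, was at 4988 and 5098 CPM in MHCIIhi and 2074 and 1699.9 CPM in MHCIIlo, a log2 fold change of 1.42. Epcam was at 554 and 508 CPM and 518 and 367 CPM, and Tspan8 at 7.07 and 8.72 CPM and 3.65 and 14.6 CPM. The MHC class II gene followed the label, and Tspan8 was far below the Tspan8pos libraries, which held 404 and 352 CPM in MHCIIhi and 347 and 366 CPM in MHCIIlo. These genes served the sort and are descriptions.

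The wider MHC class II pathway was then read without the chains of the sorted molecule, H2-Aa, H2-Ab1 and H2-Eb1. Of the other 11 genes of the list, 8 were higher and none lower, with a median log2 fold change of 1.44. Ciita, the transactivator that switches the class II genes on, was at 347 and 359 CPM in MHCIIhi and 129 and 131 CPM in MHCIIlo (log2 fold change 1.44, SE 0.13, edgeR adjusted p = 1.36e-05). Cd74, the invariant chain that guards the peptide groove, was at 15078 and 15041 and 5597 and 4725 CPM (1.54 on the log2 scale). Of the genes that edit the bound peptide, most were higher. H2-Oa, a chain of the inhibitor H2-O, was at 244 and 266 and 36.5 and 45.7 CPM and differed by 2.63, and H2-Ob at 99.2 and 104 and 10.4 and 23.8 CPM differed by 2.55. H2-DMb2, of the editor H2-M that H2-O restrains, was at 638 and 652 and 187 and 143 CPM and differed by 1.97, whereas H2-DMa, the alpha chain of H2-M, was at 121 and 131 and 66.3 and 61.3 CPM and just missed the fold limit (0.99, edgeR adjusted p = 0.0009). The 3 subunits of the RFX factor that binds class II promoters did not move alike. Rfx5 rose from 71.9 and 54.5 CPM in MHCIIlo to 151 and 144 CPM in MHCIIhi, while Rfxank and Rfxap were not called, Rfxap with 8.11 and 6.54 CPM in MHCIIhi and 14.3 and 15.3 CPM in MHCIIlo. Ciita, Rfx5, Rfxank, H2-Oa and H2-DMa overlap a gene on the opposite strand and Cd74 one on the same strand, and the sources differ on whether the libraries kept the strand, so their values are uncertain to that degree.

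Many promoters of the class II list hold the same letters. RFX and the factor NF-Y bind neighbouring boxes in front of class II genes, and NF-Y's Y box holds the core GATTGG. The promoter windows of RefSeq (GRCm38.p6, 250 bases before to 50 bases after the start, 5′ to 3′ on the gene's strand) were searched for GATTGG on both strands, whose other strand overlaps the CCAAT box. A window was found for 10 of the 14 genes, and 8 of them held the letters, among them 7 of the 8 called higher. Rfx5 and Rfxank, regulators of the class II genes, are among the 8 with a match. In all 27025 windows the share was 16.6%, and in the windows of genes tested it was 20%. The windows of H2-Aa and H2-Eb1 are printed to show the position of the match, which is in capitals. The window of H2-Aa lies at chr17:34287774-34288073 on the minus strand, with 1 match that begins 49 bases before the start. The window of H2-Eb1 lies at chr17:34305617-34305916 on the plus strand, with a match on its own strand from 60 bases and one on the other strand from 35 bases before the start.
H2-Aa: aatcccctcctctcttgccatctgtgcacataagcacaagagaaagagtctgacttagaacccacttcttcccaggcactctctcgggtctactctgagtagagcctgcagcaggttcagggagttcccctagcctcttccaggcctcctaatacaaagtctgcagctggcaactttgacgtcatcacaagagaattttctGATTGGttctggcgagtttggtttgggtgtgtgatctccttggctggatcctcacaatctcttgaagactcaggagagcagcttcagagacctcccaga
H2-Eb1: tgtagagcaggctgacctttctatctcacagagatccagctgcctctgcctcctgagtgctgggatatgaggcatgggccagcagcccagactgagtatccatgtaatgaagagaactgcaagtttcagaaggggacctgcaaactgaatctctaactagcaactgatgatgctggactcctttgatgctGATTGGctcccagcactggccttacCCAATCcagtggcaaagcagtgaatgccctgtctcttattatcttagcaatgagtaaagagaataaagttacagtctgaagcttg
H2-Aa transcript was at 4603 and 5060.5 CPM in MHCIIhi and 1376 and 1167 CPM in MHCIIlo, and H2-Eb1 at 3672 and 3716 and 1523 and 1232 CPM. A match is a description of the letters only.

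Costimulation rose with presentation. Of 14 costimulatory and inhibitory ligands, 12 were higher in MHCIIhi and 1 lower, with a median log2 fold change of 1.97. Cd80, the ligand of CD28 and CTLA-4 that marks mature mTECs, was at 162 and 143 CPM in MHCIIhi and 15.4 and 6.84 CPM in MHCIIlo (log2 fold change 3.80, SE 0.27, edgeR adjusted p = 2.88e-06). Its partner Cd86 was at 23.5 and 24.4 and 2.81 and 3.54 CPM and differed by 2.90. Tnfsf4, which encodes OX40 ligand, was at 7.28 and 10.3 CPM in MHCIIhi and under the floor in both MHCIIlo libraries, a call lost without MHCIIhi replicate 2. Cd70, the ligand of CD27, was at 27.5 and 33.1 and 3.09 and 4.95 CPM, and Icosl at 628 and 594 and 122 and 144 CPM. The exception was Pvr, the poliovirus receptor of the nectin family, at 20.4 and 24.5 CPM in MHCIIhi and 76.7 and 39.8 CPM in MHCIIlo (-1.36), a call that did not survive the loss of MHCIIhi replicate 1 or 2 or of MHCIIlo replicate 1 (-1.15, -1.42 and -0.82). The inhibitory ligands did not move together, since Pdcd1lg2 was higher (28.7 and 29.9 against 8.15 and 9.43 CPM) while Cd274, which encodes PD-L1, was at 226 and 232 CPM in MHCIIhi and 383 and 221 CPM in MHCIIlo and was not called.

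Aire marks the stage that the MHCIIhi gate is known for. It was at 2658 and 2476 CPM in MHCIIhi and 212 and 205 CPM in MHCIIlo (log2 fold change 3.62, SE 0.26, edgeR adjusted p = 3.12e-06). Both MHCIIlo libraries held Aire well above the floor, at a mean 12.3 times lower than in MHCIIhi. Fezf2, another regulator of tissue-restricted genes, was at 435 and 416 CPM in MHCIIhi and 186 and 157 CPM in MHCIIlo (1.31). Of 16 genes of Aire, Fezf2 and their cofactors, 4 were higher and 1 lower, and the median was -0.24, close to that of all genes. Sirt1, the deacetylase that acts on Aire, was at 386 and 384 and 88.8 and 57.5 CPM and Dnmt3l at 47 and 38.6 and 1.69 and 2.36 CPM. Dnmt3l lies beside Aire and overlaps it on the opposite strand, so reads of the 2 may not be told apart. Deaf1, a factor with a role in peripheral antigen expression, fell from 46.6 and 37.7 CPM in MHCIIlo to 14.8 and 15.6 CPM in MHCIIhi. The chromatin partners Chd4, Ep300, Crebbp, Top1, Top2b and Prkdc were not called, with log2 fold changes from -0.65 to -0.07.

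**Figure D3:**
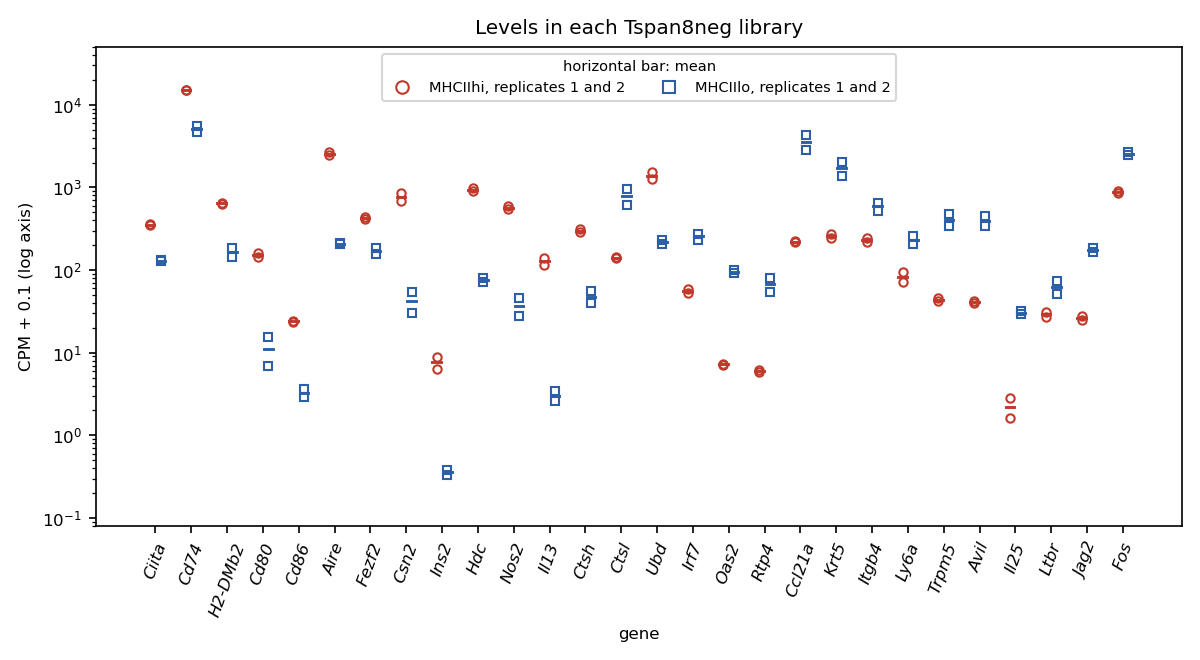
The level of 28 genes in each Tspan8neg library is shown in CPM plus 0.1 on a log axis, with red circles for MHCIIhi, blue squares for MHCIIlo and a bar at the mean of each pair. The genes were picked by hand, mostly from those called, and do not show the replicate spread of all genes. Aire was at 2658 and 2476 CPM against 212 and 205 CPM and Ccl21a at 226 and 217 CPM against 4276 and 2832 CPM.

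Receptors and factors that drive mTEC maturation were higher in many cases. RANK, CD40 and the lymphotoxin beta receptor act on mTECs through the NF-kB factors, mainly RelB with p52. Of 24 genes of this list, 13 were higher and 1 lower, with a median log2 fold change of 1.1. Tnfrsf11a, which encodes RANK, was at 189 and 197 CPM in MHCIIhi and 88.5 and 63.4 CPM in MHCIIlo, and Cd40 at 218 and 204 and 36.8 and 42.2 CPM. Tnfrsf11b, the decoy receptor osteoprotegerin that captures RANK ligand, was at 211 and 203 and 44.7 and 33.2 CPM, with a log2 fold change of 2.41 beside 1.35 for Tnfrsf11a. Ltbr, the lymphotoxin receptor, was the member that fell, at 27 and 30.8 CPM in MHCIIhi and 72.7 and 51.6 CPM in MHCIIlo (-1.09), a call that was lost without MHCIIhi replicate 1 or MHCIIlo replicate 1 (log2 fold changes -0.92 and -0.84), while without MHCIIlo replicate 2 there were 2 members called lower. Among the factors, Relb (450.0 and 399 against 204 and 171 CPM), Nfkb2 (944 and 854 against 443 and 361 CPM) and Rel (203 and 196 against 77.2 and 71.7 CPM) were higher, while Nfkb1 and Rela were not called. The inhibitor Nfkbia, itself a target of the pathway, was at 1339.7 and 1283 and 573 and 479 CPM. Tnfsf11, the RANK ligand gene, had few counts and was lower in MHCIIhi, at 1.46 and 1.79 CPM against 8.15 and 25.7 CPM, and without MHCIIlo replicate 2 or either MHCIIhi library it was not called (-2.3 without the first).

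Tissue-restricted antigens covered a wide range. Of 35 antigens on the list 34 were in the table, and 6 of these did not pass the filter on low counts, 9 were not called, 18 were higher and 1 was lower. A gene that passed the filter through MHCIIhi alone had to differ, so these counts are a description. The milk caseins illustrate the range. Csn2, a known Aire target, was at 682 and 847 CPM in MHCIIhi and 30.1 and 53.8 CPM in MHCIIlo (4.18). Csn1s2a was at 14.1 and 17.8 CPM in MHCIIhi with no count in either MHCIIlo library. Ins2, the insulin gene expressed in thymus, was at 6.24 and 8.84 CPM in MHCIIhi and under the floor at 0.281 and 0.236 CPM in MHCIIlo, at least 9.73-fold higher. The liver enzyme gene Cyp1a2 was at 24.5 and 30.5 and 0.562 and 0.236 CPM, at least 35.5-fold higher. Tg, encoding thyroglobulin, was at 16.6 and 20.6 and 1.4 and 2.36 CPM (not called without MHCIIhi replicate 2), and Gad1, of the autoantigen GAD67, at 35.4 and 36 and 4.49 and 4.01 CPM. The retinal antigen gene Sag was not called, with 4.99 and 6.15 and 4.49 and 5.19 CPM, and neither was Iapp, the islet peptide, with 17.7 and 22.8 and 14.3 and 21.7 CPM. Kcnrg was the member that fell, with 0 and 0.256 CPM in MHCIIhi, under the floor, and 5.06 and 3.54 CPM in MHCIIlo, at least 8.52-fold higher there, but without either MHCIIhi library it was not called.

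The 12 genes with the largest fitted difference toward MHCIIhi had no count in MHCIIlo. Lefty2, a TGF-beta family signal of the embryo, was at 25.6 and 31.5 CPM in MHCIIhi, at least 36.8-fold over the floor. Gip, an intestinal hormone, was at 17.3 and 22.9 CPM, at least 25.9-fold over the floor, and Marco, a scavenger receptor of macrophages, at 12.5 and 15.1 CPM. Amtn, of the enamel organ, was at 15.6 and 13.1 CPM, Krt81, a hair keratin, at 12.7 and 15.3 CPM, and Sbp, of the prostate, at 9.57 and 17.2 CPM. The others were Csn1s2a, Dcpp1, Gsdmc3, Mroh4, Apol11a and Prn, at least 16.7 to 36.8-fold over the floor across the 12. Dcpp1, Gsdmc3 and Apol11a have close relatives in their families and Prn overlaps a gene on the same strand, so their counts are uncertain.

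Some genes of signalling enzymes, a cytokine and a peptide were chosen after their values were seen to be high in MHCIIhi. Hdc, the enzyme that makes histamine, was at 981 and 902 CPM in MHCIIhi and 71.9 and 81.1 CPM in MHCIIlo (3.62, edgeR adjusted p = 2.41e-07). Nos2, inducible nitric oxide synthase, was at 541 and 593 and 28.1 and 45.5 CPM (3.94). Ptgs2, the inducible cyclooxygenase, was at 606 and 722 and 120.5 and 102 CPM (2.58). The type 2 cytokine gene Il13 was at 114 and 142 CPM in MHCIIhi and 2.53 and 3.3 CPM in MHCIIlo (5.43). Nts, which encodes neurotensin, was at 42.6 and 49.1 CPM in MHCIIhi and under the floor in MHCIIlo.

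The chemokines were called in both directions. Of 15 chemokine genes, 5 were higher (8 without MHCIIlo replicate 2), 2 lower and 8 not called. Ccl21a, which draws positively selected thymocytes into the medulla, was at 226 and 217 CPM in MHCIIhi and 4276 and 2832 CPM in MHCIIlo (-4.00), and it varied 1.51 times between the MHCIIlo replicates. Ccl19, the other ligand of the receptor CCR7, went the opposite way, with 153 and 169.6 and 72.7 and 57.5 CPM (1.31). Ccl22, a ligand of CCR4, was at 187 and 241 and 16 and 42.9 CPM and Ccl5 at 93.6 and 116 and 8.43 and 8.96 CPM. Ccl25, a ligand of CCR9 also made in the cortex, was at 207 and 283 and 27.8 and 73.3 CPM. Cxcl12 fell, from 62.1 and 58.9 CPM in MHCIIlo to 7.49 and 8.33 CPM in MHCIIhi.

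Among 18 niche cytokines and growth factors tested, 4 were higher and 8 lower (5 lower without MHCIIhi replicate 2). Il15, which thymic innate-like T cells and NK cells need, was at 29.3 and 34.4 CPM in MHCIIhi and 5.9 and 4.48 CPM in MHCIIlo (2.62). Il25, the cytokine of Tuft cells, went the other way with 2.7 and 1.54 and 29.2 and 31.8 CPM. The Notch ligands went both ways, since Dll4 was higher in MHCIIhi (51.4 and 56.7 against 16.3 and 25.5 CPM) and Dll1 (14.8 and 15.9 against 75.8 and 60.8 CPM) and Jag2 (27.7 and 25 against 186 and 164 CPM) were lower. Fst, the activin antagonist follistatin, was at 1.87 and 3.46 CPM in MHCIIhi and 71.1 and 31.1 CPM in MHCIIlo (-4.18), and Bmp4 at 0.208 and 0 CPM, under the floor, and 3.65 and 3.77 CPM, a call lost without MHCIIhi replicate 2.

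Interferon-stimulated genes were lower in MHCIIhi, with 15 of 25 lower and 1 higher against backgrounds of 9.67% and 13.1%, and a median log2 fold change of -1.26. Oas2, an antiviral enzyme, was at 7.07 and 7.18 CPM in MHCIIhi and 98.9 and 91.5 CPM in MHCIIlo (-3.73, SE 0.19, edgeR adjusted p = 5.9e-07). Rtp4 was at 6.03 and 5.77 and 80.9 and 54.7 CPM and Ifit3 at 22.3 and 24.1 and 212 and 120.5 CPM. Factors that carry the type I interferon signal were lower as well. Stat2 was at 82.1 and 76.3 CPM in MHCIIhi and 363 and 238 CPM in MHCIIlo (-1.92), Irf9 at 67.6 and 62 and 181 and 149 CPM (-1.34), and Irf7 at 52.4 and 58.7 and 276 and 233 CPM (-2.19). Irf7 overlaps a gene on the opposite strand. Isg15, a ubiquitin-like modifier, was at 30.6 and 32.6 and 109 and 82.3 CPM (-1.59). Ubd, which encodes the ubiquitin-like FAT10 and is known from mature mTECs, was the member that rose, at 1265 and 1517 CPM against 233 and 205 CPM (2.67). The summed thymocyte markers were also higher in MHCIIlo, at 749 and 2024 CPM against 186 and 315 CPM in MHCIIhi. The part of lymphoid RNA in this list was not tested.

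Many promoters of the interferon-stimulated list hold the letters of the interferon-stimulated response element. The list was made of genes known to respond to interferon, so the share of matches describes that choice. The interferon-stimulated response element holds GAAA, then 2 bases of any kind, then GAAA again, and these letters were searched on both strands in the same windows and may overlap a repeat of themselves. Windows were found for 20 of the 25 genes and 13 of them held the letters, against 3.49% of all 27025 windows. Among the 12 genes with a window that were lower in MHCIIhi 9 had a match, as did 4 of the 7 that were not called. The 1 called higher had none. The windows of Isg15 (chr4:156200769-156201068, minus strand, 3 overlapping matches beginning 78, 72 and 66 bases before the start) and Ifit3 (chr19:34583279-34583578, plus strand, 2 matches on the other strand beginning 156 and 122 bases before the start) show the matches in capitals.
Isg15: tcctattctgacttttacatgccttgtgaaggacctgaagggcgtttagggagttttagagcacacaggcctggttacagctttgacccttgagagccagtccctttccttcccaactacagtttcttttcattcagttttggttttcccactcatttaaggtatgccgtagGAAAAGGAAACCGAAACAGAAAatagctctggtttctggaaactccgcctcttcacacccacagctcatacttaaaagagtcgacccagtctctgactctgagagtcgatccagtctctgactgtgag
Ifit3: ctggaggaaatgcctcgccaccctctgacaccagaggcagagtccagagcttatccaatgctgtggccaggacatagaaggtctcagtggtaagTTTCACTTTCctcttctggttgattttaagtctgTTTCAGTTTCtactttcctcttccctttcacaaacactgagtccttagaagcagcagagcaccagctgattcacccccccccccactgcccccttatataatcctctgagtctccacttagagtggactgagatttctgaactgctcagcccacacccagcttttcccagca
With 1 member called higher, matched and unmatched members cannot be compared by direction, and the letters say nothing of binding in these cells.

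Fewer genes of MHC class I than of class II were called. Of 13 genes of class I presentation and the immunoproteasome, 3 were higher (Psmb10, Calr and Pdia3) and none lower, beside backgrounds of 13.1% and 9.67%. The median log2 fold change of this list was 0.33. Calr and Pdia3 also stand in the closing list of endoplasmic reticulum chaperones. H2-K1 was at 4346 and 4261 CPM in MHCIIhi and 3887 and 3175 CPM in MHCIIlo without being called. Endosomal proteases, which cut antigen for class II, exchanged members. Ctsl, the protease known for invariant chain cutting in cortical epithelium, was at 138 and 142 CPM in MHCIIhi and 953 and 605 CPM in MHCIIlo (-2.47). Ctss, the protease with that role in dendritic cells, was at 149.9 and 176 and 44.1 and 55.4 CPM (1.71). Ctsh at 289 and 311 and 39.6 and 55.9 CPM differed most among those that rose (2.64), and the thiol reductase gene Ifi30 was at 317 and 324 and 94.9 and 99.5 CPM (1.72). In all, 4 of 14 were higher and 1 lower (2 without MHCIIlo replicate 1). Ctsl overlaps other genes on both strands, and its level differed 1.57 times between the MHCIIlo replicates.

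Cell cycle genes showed no shift of the whole list. Of 28 genes, 4 were lower in MHCIIhi, none was higher and the median log2 fold change was -0.06. The 4 lower genes are near the background, since of all genes tested 9.67% were lower and 13.1% higher. All 4 encode subunits of the replicative helicase. Mcm5 was at 44.9 and 36.7 CPM in MHCIIhi and 75.8 and 120.0 CPM in MHCIIlo (-1.27). Without MHCIIlo replicate 2 or either MHCIIhi library 1 of the 28 was called lower, and Mcm5 was not.

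The immature and junctional list was mostly lower in MHCIIhi. Of 21 genes, 16 were lower and 2 higher in MHCIIhi, with a median log2 fold change of -1.71, and the summed level was 2809 and 2542 CPM in MHCIIhi against 11055 and 7476 CPM in MHCIIlo. Krt5, the basal keratin, was at 272 and 242 CPM in MHCIIhi and 2038 and 1369.8 CPM in MHCIIlo (-2.73), and its partner Krt14 at 182 and 151 and 927 and 558 CPM (-2.16). Lifr, the receptor of leukemia inhibitory factor, was at 36.4 and 27.8 and 420.2 and 239 CPM (-3.37). Fgfr2, which in its epithelial form receives FGF7 and FGF10, was at 21.8 and 25.1 and 228 and 125 CPM (-2.90). Ly6a, the surface protein Sca-1, was at 70.7 and 95.2 and 259 and 207 CPM (-1.48). The podoplanin gene Pdpn, which marks cells at the junction of cortex and medulla, was at 8.94 and 8.08 and 77.2 and 39.1 CPM (-2.77). The 2 members that rose were a keratin and a collagen of stratified epithelium, Krt15 (18.9 and 19.1 against 7.86 and 8.25 CPM) and Col17a1 (158 and 148 against 46.9 and 52.1 CPM). The adhesion genes did not all fall, as Itgb4 was lower (245 and 217 against 657 and 521 CPM) while Cldn4, of tight junctions, was at 887 and 700.3 CPM in MHCIIhi and 474 and 415 CPM in MHCIIlo and was not called.

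Tuft genes had the lowest medians of the lists of epithelial programs. Of 15 taste transduction genes, 13 were lower and none higher, with a median log2 fold change of -3.65, and of 21 identity and effector genes, 17 were lower and none higher (-2.18). The bitter taste receptor Tas2r105 was at 0.208 and 0.256 CPM in MHCIIhi, under the floor, and 12.1 and 9.67 CPM in MHCIIlo, and Gnb3, of the taste G protein, at 20.4 and 23.7 and 237 and 320.2 CPM (-3.65). Plcb2, the phospholipase of the taste cascade, was at 24.7 and 33.2 and 314 and 464 CPM (-3.73). Lrmp, an endoplasmic reticulum protein of taste cells, was at 17.7 and 28.1 and 297 and 383 CPM (-3.87). Alox5 of leukotriene synthesis was at 7.9 and 11.9 and 76.1 and 102 CPM (-3.13). The lineage factor Pou2f3 was at 23.3 and 23.1 CPM in MHCIIhi and 57 and 77.6 CPM in MHCIIlo (-1.54). The octamer ATGCAAAT, which POU factors bind, was searched on both strands in the manner above. It was found in 4 of 14 windows of the taste list against 1.75% of all windows. Among the 12 genes with a window that were lower in MHCIIhi 3 had a match, as did 1 of the 2 not called. Binding was not tested, and the letters do not link these genes to Pou2f3.

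**Figure D4:**
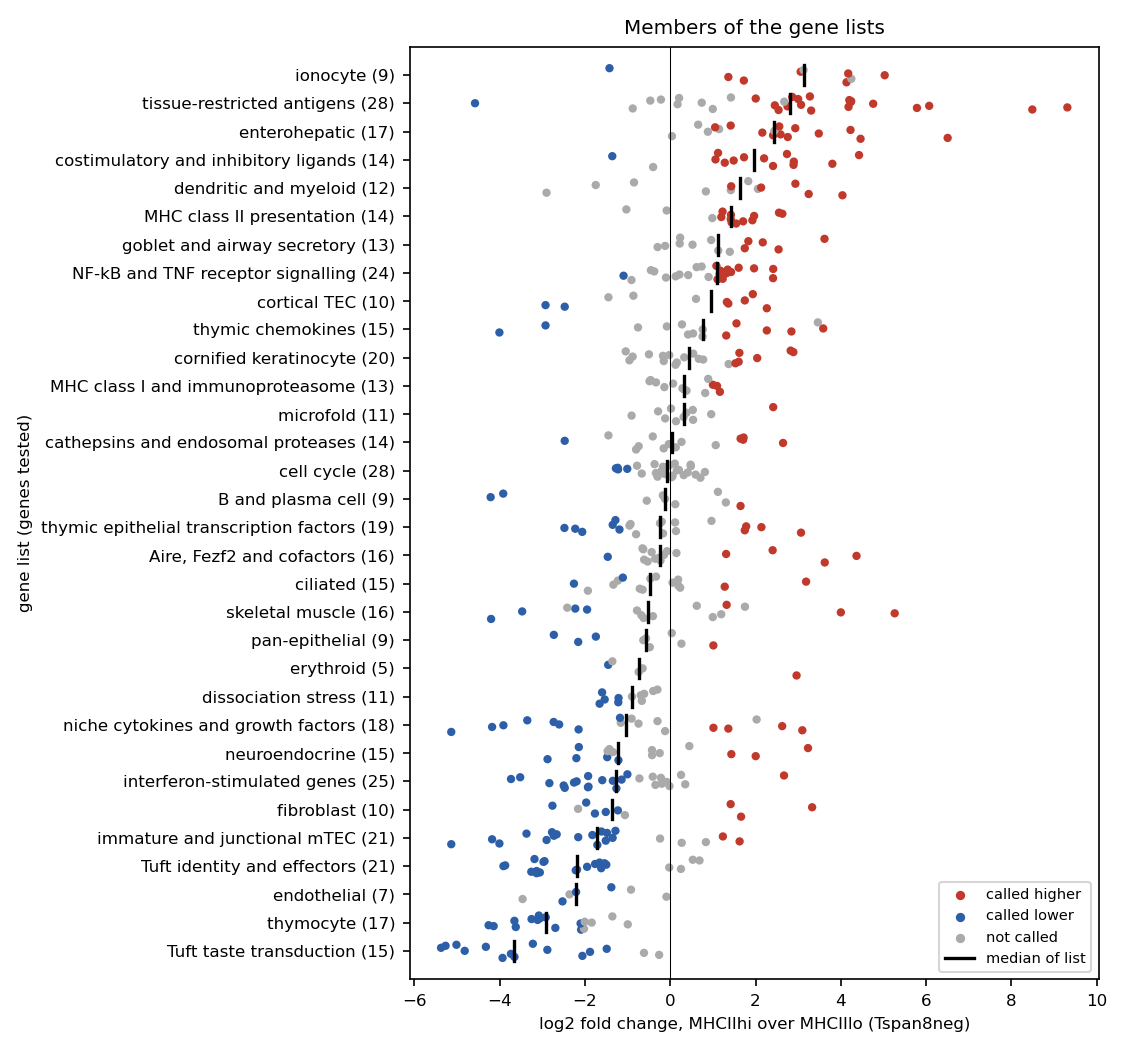
Each point is a gene of a list, placed by its log2 fold change of MHCIIhi over MHCIIlo in Tspan8neg mTECs, red where called higher, blue where called lower and grey where not called, with a black bar at the median of the list. Medians run from -3.65 for taste transduction to 3.13 for the ionocyte list, and muscle and neuroendocrine lists hold called genes on both sides.

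Muscle and neuroendocrine genes divided within each list. Of 16 muscle genes tested, 3 were higher and 4 lower. Acta1, skeletal alpha actin, was at 1.66 and 3.08 CPM in MHCIIhi and 52.2 and 39.8 CPM in MHCIIlo (-4.20), and Myog, the factor of muscle differentiation, at 6.45 and 6.79 and 26.4 and 25 CPM (-1.95), a call lost without either MHCIIhi library. The embryonic myosin gene Myh3 went the opposite way with 47.4 and 52.8 CPM in MHCIIhi and 1.4 and 1.18 CPM in MHCIIlo (5.26), as did the perinatal Myh8 with 28.7 and 25.1 and 1.12 and 2.12 CPM. Of 15 neuroendocrine genes, 3 were higher and 5 lower (2 lower without MHCIIhi replicate 2). Chga, the granule protein chromogranin A, was at 69.5 and 83.7 and 490.1 and 637 CPM (-2.88). Insm1, a transcription factor of neuroendocrine cells, was higher with 164 and 159 CPM in MHCIIhi and 37.1 and 43.1 CPM in MHCIIlo (2.00).

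In 4 other tissue lists more genes were called higher than lower in MHCIIhi. Of 17 enterohepatic genes, 12 were higher and none lower, with a median of 2.44. The apolipoprotein Apoa4 was at 216 and 241 CPM in MHCIIhi and 18.8 and 56.3 CPM in MHCIIlo (2.59) and the intestinal factor Hnf4g at 17.5 and 16.3 and 2.53 and 1.89 CPM (2.93). Of 9 ionocyte genes tested, 6 were higher and 1 lower, with Foxi1, the ionocyte factor, at 6.45 and 8.59 and 0.281 and 1.41 CPM. These are low counts, and 1 ionocyte gene was called higher without MHCIIhi replicate 2, where Foxi1 lost its call, and 3 without each of the others. Of 13 goblet and secretory genes, 5 were higher (8 without MHCIIlo replicate 2) and none lower, among them Foxa1 with 55.1 and 54.3 and 10.1 and 21.9 CPM (1.75). Of 20 cornified keratinocyte genes, 6 were higher and none lower, with Sprr1a at 289 and 259.7 and 95.8 and 82.5 CPM and Grhl3, a factor of the epidermal barrier, at 51 and 50.2 and 18.5 and 14.9 CPM. Of 15 ciliated genes 2 were higher and 2 lower, near the background of 13.1% and 9.67%, with none higher without MHCIIlo replicate 1, none lower without MHCIIhi replicate 2, and 1 in either direction without MHCIIhi replicate 1. Without MHCIIlo replicate 2 the ciliated list had 1 lower, and without MHCIIhi replicate 2 it had 1 higher. Of 11 microfold genes 1 was higher, Tnfrsf11b, which the NF-kB list also holds, and 2 were without MHCIIlo replicate 2 or either MHCIIhi library. The microfold receptor gene Gp2 was at 69.7 and 100.2 CPM in MHCIIhi and 127 and 192 CPM in MHCIIlo without being called.

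Transcription factors of thymic epithelium went both ways, 4 higher and 6 lower of 19 (3 lower without MHCIIhi replicate 2). Foxn1, which thymic epithelium requires throughout life, was at 208 and 220.5 CPM in MHCIIhi and 67.4 and 60.1 CPM in MHCIIlo (1.75, SE 0.14, edgeR adjusted p = 4.43e-06). Irf4 at 240.4 and 225 and 46.3 and 59.2 CPM and Irf8 at 431 and 384 and 120.2 and 117 CPM were higher. Eya1, of early thymus formation, was lower with 24.5 and 25.4 and 104 and 104 CPM (-2.06), as was Trp63, the basal epithelial factor p63, with 46.8 and 56 and 142 and 110.1 CPM (-1.28). Klf5 (28.1 and 26 against 84 and 54 CPM) and the Notch target Hey1 (9.57 and 6.02 against 37.9 and 33.7 CPM) were lower as well, calls lost for both without MHCIIhi replicate 2 and for Klf5 also without MHCIIhi replicate 1.

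Of 12 dendritic and myeloid genes tested, 5 were higher in MHCIIhi and none lower, against 2 higher without MHCIIhi replicate 2 and 8 without MHCIIlo replicate 2. Lyz2, lysozyme of myeloid cells, was at 279 and 331 CPM in MHCIIhi and 26.1 and 53 CPM in MHCIIlo (2.93), and Adgre1, the macrophage marker F4/80, at 15.2 and 23.1 and 0.843 and 1.41 CPM. The signalling adaptor Tyrobp (2.29 and 3.08 and 3.37 and 6.37 CPM) and Itgax, the integrin CD11c (4.16 and 6.15 and 9.27 and 25.7 CPM), were not called. Ptprc, which thymocytes carry as well as dendritic cells and macrophages, was lower in MHCIIhi. Which cells the Lyz2 and Adgre1 RNA came from was not tested. Of 9 B and plasma cell genes tested, 1 was higher and 2 were lower, the plasma cell genes Jchain (5.61 and 3.2 and 63.8 and 93.6 CPM) and Mzb1 (0.624 and 0.641 and 5.06 and 14.6 CPM). Without MHCIIlo replicate 2 or either MHCIIhi library Mzb1 was not called and 1 of the 9 was lower, and without MHCIIlo replicate 2 there were 2 higher. The 12 genes with the largest fitted difference toward MHCIIlo were 11 immunoglobulin variable segments and Tmem254c, all with close relatives in the genome. The cortical list had 5 of 10 higher and 2 lower, and Psmb11, the proteasome subunit particular to cortical epithelium, was at 4.78 and 8.97 CPM in MHCIIhi and 6.46 and 18.9 CPM in MHCIIlo and was not called.

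In the Tspan8pos gate the same contrast called fewer genes, 780 higher (4.59%) and 446 lower (2.62%). Tspan8posMHCIIlo replicate 1 was the shallowest of all 8 libraries, with 1941518 counts. Among genes with a mean over all 8 libraries between 1 and 3 CPM, 22 were higher in Tspan8pos and 394 in Tspan8neg. Between 30 and 100 CPM these were 187 and 442. The part of depth in the counts and overlaps was not tested. The contrasts share no library. Of the 2222 genes higher in Tspan8negMHCIIhi, 645 were also higher in Tspan8posMHCIIhi, which is 29% of the first list and 82.7% of the second. Of the 1644 lower genes, 229 were also lower there, 13.9% of the first list and 51.3% of the second. A total of 14 genes were called in opposite directions. The difference between the contrasts was tested as an interaction, which called 783 genes (4.6%), and 659 of them were among the 3866 called in Tspan8neg mTECs.

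The lists were then counted in both gates. Of the 11 class II genes beside the sorted chains, 8 were higher in each gate and 2 were called in the interaction. Of 15 Tuft taste genes, 13 were lower in Tspan8neg and 11 in Tspan8pos, with 2 called in the interaction. Aire differed by 3.62 in Tspan8neg and 4.09 in Tspan8pos, and the difference of the 2 was not called. The immature list was lower in 16 genes in Tspan8neg and in none in Tspan8pos, and 9 of its 21 genes were called in the interaction. Krt5 was at 1518 and 1460.3 CPM in Tspan8posMHCIIhi and 1432 and 1344 CPM in Tspan8posMHCIIlo, a log2 fold change of 0.10 against -2.73 in Tspan8neg (interaction -2.83, edgeR adjusted p = 0.000183). Interferon-stimulated genes fell in 15 and 1 members, with 7 of 25 called in the interaction, and NF-kB genes rose in 13 and 4 members, with 2 of 24 called. Thymocyte markers, lower in 12 members in Tspan8neg, were called in none of 17 in Tspan8pos, and the interaction called none of them either.

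The 8 genes with the smallest interaction p among those called in Tspan8neg follow. Hal, histidine ammonia-lyase of skin and liver, was at 129 and 134 CPM in Tspan8negMHCIIhi and 6.74 and 8.72 CPM in Tspan8negMHCIIlo, and at 213 and 229 and 173 and 206 CPM in Tspan8posMHCIIhi and Tspan8posMHCIIlo (interaction 3.86, edgeR adjusted p = 8.47e-05). Psca, prostate stem cell antigen, was at 30.4 and 32.7 and 1.97 and 1.65 CPM in Tspan8neg and at 50.2 and 62.4 and 70.9 and 60.3 CPM in Tspan8pos. Klk7, a protease of the cornified layer, was at 26.2 and 33.3 and 6.18 and 7.07 CPM in Tspan8neg, where it was called higher in MHCIIhi, and at 276 and 231 and 639 and 537 CPM in Tspan8pos, where it was called lower. Tnnt2, cardiac troponin T, was at 121 and 124 and 10.7 and 12.5 CPM against 99.4 and 103 and 55 and 57.2 CPM. Igfbp5, a binding protein of insulin-like growth factors, was lower in Tspan8negMHCIIhi with 107 and 119.7 and 992 and 859 CPM and at 305 and 314 and 541 and 507 CPM in Tspan8pos. The others were Slc4a8, Ankrd33b and Plekhs1, with interaction values of 3.12, 2.44 and 2.56.

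**Figure D5:**
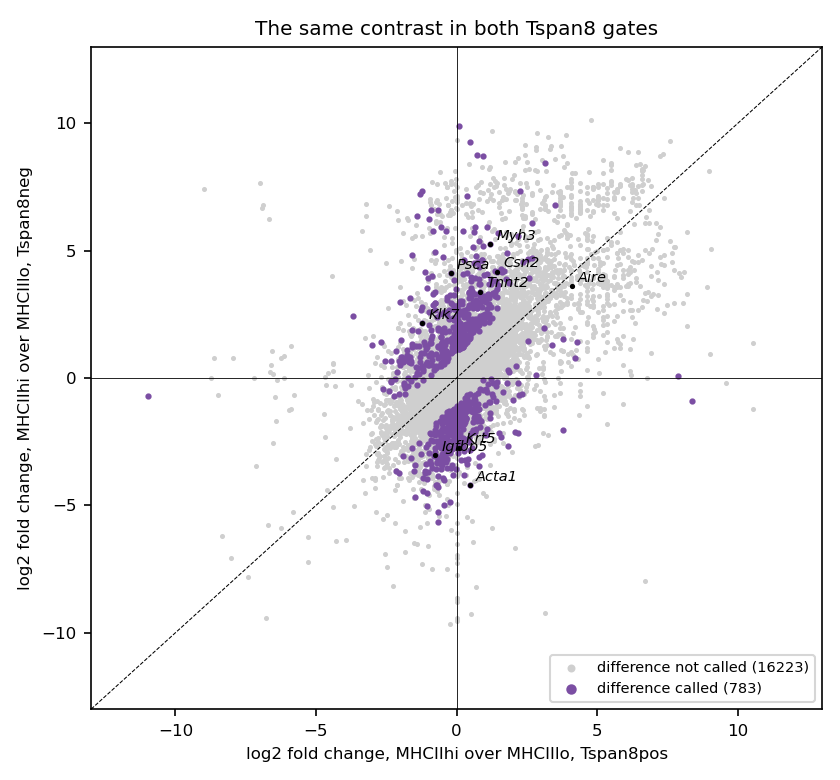
Each point is 1 of 17006 genes, with its log2 fold change of MHCIIhi over MHCIIlo in Tspan8pos on the horizontal and in Tspan8neg on the vertical axis. The dashed line marks equal values. Purple points are the 783 genes whose difference between the contrasts was called, and Aire lies near the line while Acta1 and Krt5 lie below it.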

How the data were processed

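RNA-seq counts of 4 Tspan8neg libraries were compared, in a fit of all 8 libraries. The authors deposited estimated counts per gene, which they made with Salmon 1.8.0 against the Gencode transcriptome (mm10), as whole numbers without normalization. The labels name a stranded mRNA kit and the methods a pre-amplified, tagmented library, so genes that overlap on the opposite strand are marked uncertain. Symbols come from GENCODE on GRCm38 for 25336 of 25466 identifiers (99.49%). The submitters' notes also name DESeq2 1.30.0.

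The counts were tested with edgeR 4.0.16 (R 4.3.3, quasi-likelihood test, TMM, filterByExpr on the 4 groups, Benjamini-Hochberg over 17006 genes, two-sided). A call needed an adjusted p under 0.01 and a log2 fold change of at least 1. SE was taken as the size of the log2 value over the root of its F statistic. A fold against a group at or under 3 counts per library is a lower bound against that floor. Floors cover counting error only. Detected genes at equal depth (3456419 counts) are hypergeometric expectations. DESeq2 1.42.0, other filters, scalings, thresholds, a replicate block, thinning to 1941518 counts and leaving out each library were the alternatives. The scripts were tested on simulated data.

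Named genes were the sort genes, the key genes of each list with up to 4 further called ones, the 12 called genes with the largest difference each way at 10 CPM or more, and the 8 smallest interaction p. A few genes that this rule names are not reported here. The members and lists were chosen with earlier results of these data known. Genes outside the rule, chosen after their values were seen, are those of the closing observations and Bmp4, Cldn4, Col17a1, Dll4, H2-DMa, H2-K1, Hdc, Iapp, Il13, Irf9, Kcnrg, Klf5, Nfkbia, Nos2, Nts, Pdcd1lg2, Ptgs2, Pvr, Rfx5, Rfxap, Sag, Stat2, Tas2r105, Tg, Tnfsf11, Tnfsf4 and Tyrobp.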

Additional observations from a re-analysis of the deposited data

Results flagged for a closer look

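With 2 libraries in each group, no library can be tested for standing apart from its group. The values below are genes named in the text whose difference between MHCIIhi and MHCIIlo was itself different in Tspan8neg and Tspan8pos mTECs, by the interaction in the edgeR fit (called at an adjusted p under 0.01 and at least 1 on the log2 scale). Each value is the log2 fold change in Tspan8neg minus that in Tspan8pos. The chemokine, cytokine and Notch ligand genes gave -3.54 for Ccl21a, -2.07 for Ccl19, -2.15 for Cxcl12, -1.98 for Dll1 and -1.13 for Jag2. For basal and junctional genes it was -2.83 for Krt5, -2.29 for Krt14, -1.60 for Trp63, -2.26 for Ly6a, -2.46 for Lifr and -2.55 for Fgfr2. For the interferon-stimulated genes it was -1.68 for Oas2, -2.64 for Rtp4, -2.55 for Ifit3, -1.28 for Irf7 and -1.43 for Isg15. Genes of class II presentation, costimulation, proteolysis and NF-kB signalling gave -1.15 for H2-DMb2, -1.10 for Ciita, 1.97 for Cd80, 2.49 for Ctsh, -1.78 for Ctsl, 1.20 for Rel and 1.27 for Tnfrsf11b. Muscle and neuroendocrine genes gave -4.67 for Acta1, 4.06 for Myh3, 2.55 for Tnnt2 and -3.12 for Chga. Epidermal and secretory genes gave 3.86 for Hal, 4.32 for Psca, 3.38 for Klk7, 2.18 for Sprr1a and 1.47 for Grhl3. For antigens, mediators and peptides it was 2.73 for Csn2, 1.38 for Nos2 and 3.29 for Nts. For stress and early response genes it was -1.11 for Fos and -1.31 for Atf3. The other genes were Slc4a8 with 3.12, Ankrd33b with 2.44, Igfbp5 with -2.27, Plekhs1 with 2.56, Tagln with -3.63, Agrn with -1.58, Col6a1 with -2.66, Hspa5 with 1.15, Notch3 with -2.83, Edem1 with -1.59, Hes1 with -1.81, Creld2 with 1.16, Gnb3 with -1.48 and Deaf1 with -1.42. The edgeR adjusted p of these 51 genes ran from 8.47e-05 to 0.00943.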

How the results depend on the processing

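With 2222 genes higher and 1644 lower in Tspan8negMHCIIhi, no gene called under the main settings took the opposite sign under any other setting. DESeq2's Wald test gave 2056 and 1349 and its size factors in edgeR 2386 and 1474. Without 1 library the higher count ran from 1456 to 2086 and the lower count from 904 to 1740. The lowest counts came without MHCIIhi replicate 2, and without MHCIIlo replicate 2, the library with the most thymocyte RNA, they were 2086 and 1673. The interaction count of 783 was 1267 with no filter on low counts, 1236 with the replicate block, 1754 at an adjusted p under 0.05, and 273 to 1385 without 1 library (294 without MHCIIhi replicate 1, 273 without MHCIIhi replicate 2, 1229 without MHCIIlo replicate 1 and 1385 without MHCIIlo replicate 2). The cause was not tested. The replicate block gave 2235 and 1735 genes in the Tspan8neg contrast. The labels do not say what equal replicate numbers share. Deviations of same-numbered libraries correlated at 0.004 to 0.0924 between groups, and the numbers were not treated as pairs. The difference of 2597 detected genes was 1668.5 at 5 counts, 1196 at 1 CPM without thinning and 585.5 among filtered genes, and 2443 to 2750 without 1 library.

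Of 149 genes named with values, 15 lost their call in at least 1 setting. Bmp4, Foxi1, Hey1, Tg and Tnfsf4 did so without MHCIIhi replicate 2, Rag1 without MHCIIhi replicate 1, and Klf5, Kcnrg and Myog without either. Mcm5, Mzb1 and Tnfsf11 did so without either MHCIIhi library or MHCIIlo replicate 2, Krt15 on thinned counts, Ltbr without MHCIIhi or MHCIIlo replicate 1, and Pvr without either MHCIIhi library, without MHCIIlo replicate 1 or with the 4 Tspan8neg libraries alone. Genes not called in the full fit could change sign without 1 library, over ranges of -0.756 to 0.0402 for Cd274, -0.0877 to 0.508 for Iapp, -1.42 to 0.113 for Psmb11 and -0.871 to 1.12 for Tspan8, the changed sign arising without MHCIIlo replicate 1 for Cd274 and Iapp and without MHCIIlo replicate 2 for Psmb11 and Tspan8. Ionocyte genes called higher numbered 1 to 3 without 1 library, against 6, and thymocyte markers called lower 6 to 17, against 12. Depth limits the low end, since a gene under 0.843 CPM is below the floor of the shallowest Tspan8neg library, and under 1.65 CPM below that of the shallowest of all 8.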

Other observations

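The lists of the following groups were written after the values had been seen, so their counts describe these libraries only. Endoplasmic reticulum chaperones and folding factors were higher in Tspan8negMHCIIhi, with 9 of 22 called higher and 1 lower, beside backgrounds of 13.1% and 9.67%. Hspa5, the chaperone BiP, was at 2313 and 2297 CPM in MHCIIhi and 1044 and 899 CPM in MHCIIlo (1.25 on the log2 scale), and Creld2 at 159.7 and 168 and 48.3 and 57.1 CPM (1.64). The unfolded protein response factor Xbp1 was at 102 and 97.5 and 164 and 164 CPM and was not called, and Edem1, which hands misfolded proteins to degradation, was lower with 76.1 and 84 and 174 and 262 CPM (-1.44). None of the 22 genes was called in the Tspan8pos contrast.

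Genes of the basement membrane and matrix were lower in MHCIIhi, with 17 of 26 lower and 3 higher. The collagen VI chain gene Col6a1 was at 59.7 and 46 CPM in MHCIIhi and 859 and 493 CPM in MHCIIlo (-3.68), while its sister chain gene Col6a3 was higher with 36.8 and 32 and 3.09 and 11.1 CPM (2.24). Agrn, the matrix protein agrin, was at 134 and 150.1 and 560.1 and 477 CPM (-1.87). The fibronectin gene Fn1 was higher with 297 and 359 and 113 and 97.4 CPM (1.64). Contractile genes fell in 11 of 16 members and rose in 1, with Tagln at 10.4 and 9.36 and 232 and 154 CPM (-4.29). In the Notch pathway 8 of 20 genes were lower and 2 higher, with Notch3 at 11 and 13.3 and 77 and 177 CPM (-3.37) and the target Hes1 at 10.4 and 12 and 41.9 and 54.2 CPM (-2.09).

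Some gene families held many called members, given here over all genes listed as a description. All 8 Bpifb genes, which encode secreted proteins of mouth and airway, were higher in MHCIIhi. Of 13 pregnancy-specific glycoproteins (Psg), 8 were higher and none lower, of 18 carboxylesterases (Ces), 13 were higher and 1 lower, and of 54 keratins (Krt), 27 were higher and 5 lower. Of 34 taste receptors (Tas), 9 were lower and none higher. Members of these families share sequence, and a gene that passed the filter on low counts through 1 gate alone had to differ.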
